A study of Mus musculus with 26 samples.

Results

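Interferon-stimulated genes are the genes that cells switch on after an interferon binds its receptor, and 39 of them were followed here through 6 RNA-seq libraries. The 39 were a list of mouse symbols, each matched to a single Ensembl identifier among the 54146 in the count files. Polyadenylated RNA had been sequenced from leukemia cell lines made by transducing lineage-negative mouse bone marrow with retroviral MLL-AF9 (MA9), a fusion oncogene. MLL-AF9 was present in every library, together with either retroviral SETDB1, a histone H3 lysine 9 methyltransferase, in 3 MA9+SETDB1 libraries, or the empty puromycin vector MSCVpuro in 3 MA9+EV libraries. Cultures of 8 to 12 weeks received the cytokines IL-3 and SCF, with puromycin selection for about 3 to 6 weeks. No interferon treatment is described. The labels number the libraries of each group 1 to 3 without saying whether they came from separate transductions, and mouse strain and age are not given in the sources used here.

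Type I interferons signal through a receptor of IFNAR1 and IFNAR2 and the kinases JAK1 and TYK2 to a complex that includes STAT2 and IRF9, which binds a DNA element known as the ISRE. Interferon gamma acts through IFNGR1 and IFNGR2, and its response runs through the GAS element. Many interferon-stimulated genes also have a basal level set by these factors without added interferon, and they include sensors of viral RNA, enzymes that degrade RNA or nucleotides, and membrane proteins that stop viruses from entering or leaving cells. SETDB1 is known for silencing endogenous retroviruses, whose transcripts can be sensed as foreign nucleic acid.

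Of the 39 genes, 29 had enough reads to be tested, and 10 did not. MA9+SETDB1 had lower levels of 15 of the 29 and higher levels of 6 at an edgeR adjusted p under 0.05 (edgeR's quasi-likelihood test with Benjamini-Hochberg adjustment over all tested genes), and 8 did not pass. Among all 12986 tested genes, 53.5% passed, 27.4% as higher and 26.2% as lower, against 72.4%, 20.7% and 51.7% of the 29. A gene that reached the read minimum only through its higher group had to differ, so these shares describe the tested genes and support nothing further. The largest fitted falls were in the nucleotide kinase gene Cmpk2, the virus-entry inhibitor gene Ifitm3, and Trim30a and Rnf213, and the largest fitted rises in Ifi27l2a, Oas3, Oasl2 and Isg15. The median log2 fold change of the 29 was -0.91, beside -0.01 over all tested genes. The median absolute log2 fold change was 1.80 for the 29 and 0.62 over all tested genes. The groups of libraries did not overlap for 23 of the 29, with 6 higher and 17 lower in MA9+SETDB1, where 64.6% of all tested genes did not overlap, 32.1% higher and 32.5% lower.

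**Figure D1:**
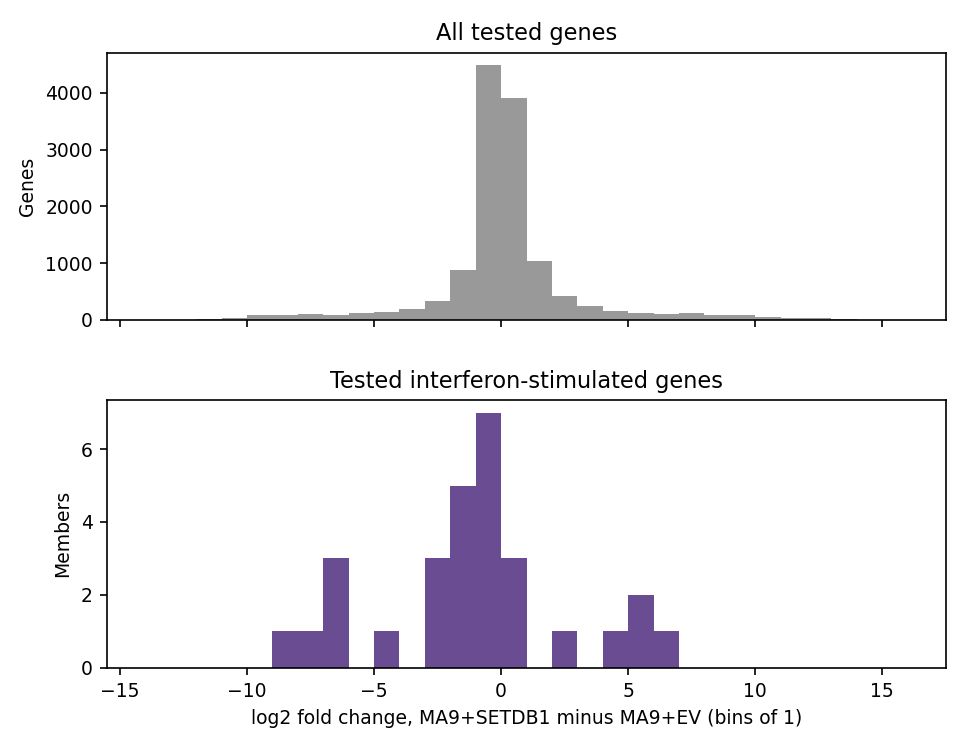
Number of genes (vertical axis) in each bin of fitted log2 fold change, MA9+SETDB1 minus MA9+EV (horizontal axis, bins of 1), for all 12986 tested genes (top) and the 29 tested interferon-stimulated genes (bottom). The members lie on both sides of 0, with a median of -0.91.

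Promoter sequences showed that the list as a whole often carries an ISRE core, both in genes that rose and in genes that fell. RefSeq promoters (GRCm38.p6, 250 bases before to 50 after a start) were at hand for 29 of the 39 genes. An ISRE core, written GAAA, any 2 bases and GAAA again, searched on both strands (TTTC, any 2 bases and TTTC on the other), was present in 18 of them (62.1%), against 3.99% of the 27025 genes with a promoter in the table. A GAS, TTCNNNGAA, which reads the same on both strands, was present in 7 (24.1%, against 9.55%), and in 2 promoters the GAS overlapped an ISRE core. The core was found in 3 of 5 higher genes with a promoter, in 8 of 12 lower genes, in 4 of 6 that did not pass and in 3 of 6 too low to test. A match is a description of letters and not a binding site.

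The upstream 250 bases are shown for Isg15, which rose, for Rsad2, which fell, and for Ifit1, which had almost no reads in either group, because all of them hold the element; capitals mark ISRE cores, and sequences run 5′ to 3′ in the direction of transcription. The cores start at positions -78, -72 and -66 in Isg15 (chr4:156200819-156201068, minus strand), at -120 in Rsad2 (chr12:26456453-26456702, minus strand) and at -104 and -85 in Ifit1 (chr19:34640639-34640888, plus strand), with the start as +1.
Isg15: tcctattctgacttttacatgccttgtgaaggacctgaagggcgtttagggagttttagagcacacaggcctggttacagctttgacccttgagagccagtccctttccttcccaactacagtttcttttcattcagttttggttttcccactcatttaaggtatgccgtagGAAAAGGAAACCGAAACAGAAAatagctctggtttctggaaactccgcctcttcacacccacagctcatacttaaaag
Rsad2: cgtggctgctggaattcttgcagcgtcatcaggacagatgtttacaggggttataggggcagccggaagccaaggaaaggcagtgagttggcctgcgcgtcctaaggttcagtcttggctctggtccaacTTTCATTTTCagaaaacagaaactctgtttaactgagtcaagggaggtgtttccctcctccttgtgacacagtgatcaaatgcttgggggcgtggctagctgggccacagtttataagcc
Ifit1: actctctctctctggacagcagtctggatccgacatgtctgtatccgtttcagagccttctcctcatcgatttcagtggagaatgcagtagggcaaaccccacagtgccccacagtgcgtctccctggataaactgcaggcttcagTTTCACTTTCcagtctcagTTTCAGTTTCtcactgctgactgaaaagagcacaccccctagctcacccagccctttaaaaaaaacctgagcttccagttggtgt

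Windows of 30 bases around the cores are shown for further genes, Oas3, which rose, and Oas1a, Irgm1, Ifitm3 and Trim30a, which fell. They lie at chr5:120777715-120777744, minus strand (Oas3), chr5:120907523-120907552, minus strand (Oas1a), chr11:48871428-48871457, minus strand (Irgm1), chr7:141010715-141010744, minus strand (Ifitm3) and chr7:104465210-104465239, minus strand (Trim30a). In Oas1a and Irgm1 a pair of cores overlaps so that the capitals run on.
Oas3: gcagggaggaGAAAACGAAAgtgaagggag
Oas1a: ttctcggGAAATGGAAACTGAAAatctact
Irgm1: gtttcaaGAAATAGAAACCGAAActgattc
Ifitm3: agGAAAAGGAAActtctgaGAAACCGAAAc
Trim30a: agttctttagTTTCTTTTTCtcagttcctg

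The targeted gene matched the labels. Setdb1 stood at 105, 108 and 109 CPM in MA9+EV and 475, 605 and 607 CPM in MA9+SETDB1 (log2 fold change 2.39 ± 0.13 SE, adjusted p = 2.42e-05 by edgeR). Total gene counts ranged from 18070482 to 22561757, and CPM are counts per 1000000 of scaled library size. Replicate 1 stood apart from replicates 2 and 3 in both groups: over tested genes averaging 10 CPM or more, the SD of the log2 difference was 0.125 between replicates 2 and 3 of either group, and 0.494 to 0.591 between replicate 1 and the others. Among the 29 tested members, replicate 1 was the lowest library for 20 in MA9+EV (69%) and for 20 in MA9+SETDB1 (69%), against 45.3% and 43.9% of all tested genes. The marker genes of myeloid cells moved with the groups. Summed over 10 neutrophil granule genes the level was 14290 to 18750 CPM in MA9+EV and 44.9 to 127 CPM in MA9+SETDB1 (all 10 lower), and over 10 mast cell and basophil genes 49.6 to 85.0 CPM and 11090 to 11620 CPM (9 higher, Mcpt4 at 0). Over 10 monocyte and macrophage genes it was 2472 to 4238 and 792 to 1807 CPM (6 lower, 3 higher). The lower genes ran from Ccr2 (log2 fold change -1.56) to F13a1 (-10.50). Csf1r, Cd68 and Adgre1 were higher, and Adgre1 was the largest part of the MA9+SETDB1 sum, at 373, 1223 and 1172 CPM. Over 10 erythroid genes the level was 928 to 955 and 2739 to 2942 CPM (9 higher). Tfrc, which did not pass, made up nearly all of the MA9+EV sum, at 928, 954 and 930 CPM. The other 9 averaged at most 0.781 CPM in MA9+EV (Klf1) and 51.2 (Alas2) to 516 CPM (Hba-a1) in MA9+SETDB1. The plasmacytoid dendritic cell list, a cell type known for making interferon, summed to 226 to 290.0 and 15.0 to 68.6 CPM (3 of 10 lower). Its genes Siglech, Klk1 and Ly6d were at 0 in every library. The lower genes were Tcf4, Runx2 and Lair1. They averaged 44.9, 98.8 and 118 CPM in MA9+EV and 1.59, 5.02 and 25.4 CPM in MA9+SETDB1. The T and NK cell, B cell, and stromal and endothelial lists summed to 24.9 to 31.2, 3.86 to 5.29 and 231 to 366 CPM in MA9+EV, and to 158 to 463, 2.74 to 3.69 and 162 to 217 CPM in MA9+SETDB1. In the T and NK cell list 3 of 10 genes were higher (Gzmb, Il7r and Nkg7) and 1 lower (Lck). Gzmb made up most of that sum in MA9+SETDB1, at 128, 402 and 412 CPM. The B cell list had 1 of 8 lower (Igll1). The stromal and endothelial list had 1 of 8 higher (Pdgfrb) and 2 lower (Pecam1 and Lepr). Cd3e, Cd8a, Cd4, Klrb1c, Ncr1, Ms4a1, Pax5, Cdh5 and Kdr were at 0 throughout. The part of these lineage markers in the results was not tested, and in bulk RNA fewer cells of a type and less RNA per cell cannot be told apart.

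Genes of the IFIT family, which bind viral RNA, were near the limit of detection apart from Ifit2. Ifit2 (ENSMUSG00000045932.12, GRCm38 chr19:34550550-34576534) stood at 22.1, 15.1 and 13.7 CPM in replicates 1, 2 and 3 of MA9+EV and 0.951, 0.913 and 0.779 CPM in those of MA9+SETDB1. All MA9+SETDB1 libraries lay below all MA9+EV libraries (log2 fold change -4.26 ± 0.29 SE, adjusted p = 5.02e-05 by edgeR). Ifit1, which recognizes RNA caps that lack methylation, had 26 counts over MA9+EV and 4 over MA9+SETDB1, and was not tested. Ifit3 had 3 and 0 counts and Ifit3b 1 and 0. These are near-identical copies, with the same 30 bases around their first ISRE core, so reads aligned to both may have been left uncounted.

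The OAS family, whose enzymes answer double-stranded RNA by making a small messenger molecule, divided. Oas3 (ENSMUSG00000032661.9, GRCm38 chr5:120753098-120777684) stood at 0.785, 1.58 and 2.32 CPM in replicates 1, 2 and 3 of MA9+EV and 56.2, 65.4 and 68.2 CPM in those of MA9+SETDB1, higher in every MA9+SETDB1 library (log2 fold change 5.36 ± 0.36 SE, adjusted p = 5.02e-05 by edgeR). Oasl2 (ENSMUSG00000029561.17, GRCm38 chr5:114896926-114912245), an OAS-like gene, stood at 0.165, 0.207 and 0.453 CPM in MA9+EV and 2.18, 14.9 and 14.3 CPM in MA9+SETDB1 (log2 fold change 5.25 ± 0.87 SE, adjusted p = 0.00232 by edgeR). Both were near absent in MA9+EV, and Oasl2 was lower in MA9+SETDB1 replicate 1 than in replicates 2 and 3. Oas1a (ENSMUSG00000052776.10, GRCm38 chr5:120896256-120907544) moved the other way, from 21, 16.2 and 18.3 CPM to 1.9, 8.58 and 9.3 CPM (log2 fold change -1.49 ± 0.53 SE, adjusted p = 0.0491 by edgeR). Its call was close to the threshold and was lost with any library left out other than MA9+SETDB1 replicate 1 (edgeR adjusted p 0.0569 to 0.11), with the replicate block (edgeR adjusted p = 0.0541) and with DESeq2 size factors (edgeR adjusted p = 0.0512). Oas2, which lies next to Oas3 on the same chromosome, stood at 2.64, 1.74 and 2.12 CPM in MA9+EV and 1.29, 1.34 and 0.883 CPM in MA9+SETDB1 and just missed the threshold (log2 fold change -0.89 ± 0.32 SE, adjusted p = 0.0506 by edgeR). Oasl1 had 1 count over MA9+EV against 0.

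**Figure D2:**
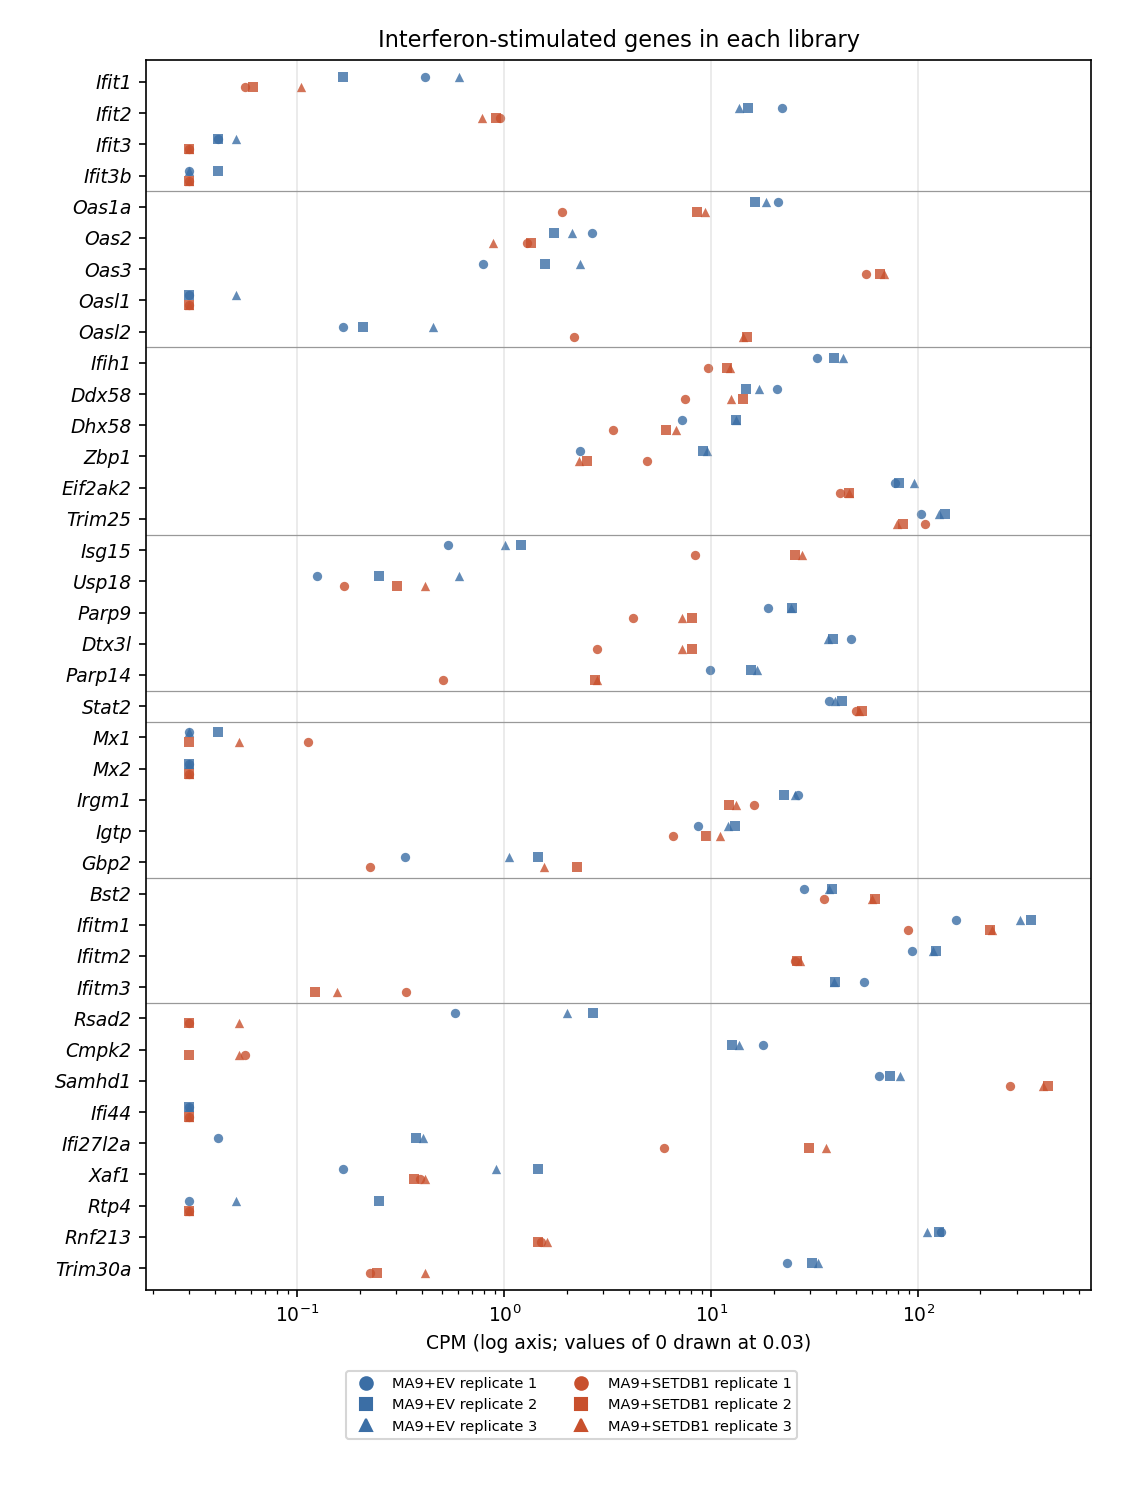
CPM (horizontal log axis, values of 0 drawn at 0.03) of all 39 genes in each of the 6 libraries, grouped by role, with colour for the group and marker shape for the replicate number. Oas3, Oasl2, Isg15, Samhd1 and Ifi27l2a lie to the right in MA9+SETDB1, and Ifitm3, Cmpk2, Rnf213 and Trim30a far to the left.

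The sensors of foreign nucleic acid were lower or did not pass, and none of the 6 rose. Ifih1, which encodes the long double-stranded RNA sensor MDA5 (ENSMUSG00000026896.14, GRCm38 chr2:62595618-62646255), stood at 32.4, 39.1 and 43.4 CPM in replicates 1, 2 and 3 of MA9+EV and 9.68, 11.9 and 12.3 CPM in those of MA9+SETDB1. The groups were well apart (log2 fold change -1.76 ± 0.17 SE, adjusted p = 0.000229 by edgeR). Eif2ak2, the gene of the RNA-activated kinase PKR that halts translation, stood at 77, 80.8 and 95.8 CPM in MA9+EV and 42.1, 46.5 and 46.1 CPM in MA9+SETDB1, again without overlap (log2 fold change -0.91 ± 0.12 SE, adjusted p = 0.000795 by edgeR). Dhx58, which encodes LGP2, a relative of MDA5 without signalling domains, stood at 7.23, 13.2 and 13.2 CPM in MA9+EV and 3.36, 6.03 and 6.75 CPM in MA9+SETDB1 (log2 fold change -1.06 ± 0.36 SE, adjusted p = 0.0426 by edgeR). The Dhx58 call was lost with any library left out other than MA9+EV replicate 1 (edgeR adjusted p 0.0573 to 0.125).

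Ddx58, the gene of RIG-I, which senses RNA with a 5′ triphosphate, stood at 20.8, 14.8 and 17 CPM in MA9+EV and 7.5, 14.2 and 12.4 CPM in MA9+SETDB1 and did not pass (log2 fold change -0.62 ± 0.27 SE, adjusted p = 0.0947 by edgeR). Trim25, the gene of a ubiquitin ligase that acts on RIG-I, stood at 103, 135 and 126 CPM in MA9+EV and 108, 84.1 and 79 CPM in MA9+SETDB1 (log2 fold change -0.43 ± 0.16 SE, adjusted p = 0.0583 by edgeR). Here MA9+SETDB1 replicate 1 lay within the MA9+EV range, and Trim25 passed without it (edgeR adjusted p = 0.011) or without MA9+EV replicate 1 (edgeR adjusted p = 0.0321). Zbp1, a sensor of Z-form nucleic acid that can start necroptosis, stood at 2.31, 9.17 and 9.57 CPM in MA9+EV and 4.87, 2.5 and 2.29 CPM in MA9+SETDB1 (log2 fold change -1.12 ± 0.58 SE, adjusted p = 0.145 by edgeR). Replicate 1 went against the others in Zbp1, lowest of MA9+EV and highest of MA9+SETDB1, and without MA9+EV replicate 1 the gene passed as lower (log2 fold change -1.54, edgeR adjusted p = 0.0182).

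In the ISG15 system, which attaches the ubiquitin-like protein ISG15 to other proteins, the modifier and its first enzymes rose. Isg15 (ENSMUSG00000035692.6, GRCm38 chr4:156199424-156200818) stood at 0.537, 1.2 and 1.01 CPM in replicates 1, 2 and 3 of MA9+EV and 8.39, 25.4 and 27.5 CPM in those of MA9+SETDB1. All MA9+SETDB1 libraries were higher, replicate 1 the least so (log2 fold change 4.47 ± 0.56 SE, adjusted p = 0.000718 by edgeR). Uba7, the E1 enzyme gene that activates ISG15, went from 38.2, 32.6 and 33.1 to 262, 264 and 267 CPM (log2 fold change 2.93 ± 0.11 SE, adjusted p = 4.59e-06 by edgeR). Ube2l6, the gene of its E2 enzyme, stood at 0.578, 1.16 and 1.41 CPM in MA9+EV and 15, 8.16 and 9.76 CPM in MA9+SETDB1 (log2 fold change 3.39 ± 0.42 SE, adjusted p = 0.000657 by edgeR). The E3 ligase gene Herc6 lay lower in MA9+SETDB1, at 11.4, 10.5 and 10.8 CPM in MA9+EV and 2.63, 6.03 and 5.87 CPM in MA9+SETDB1 (log2 fold change -1.17 ± 0.33 SE, adjusted p = 0.0218 by edgeR), a call lost without MA9+EV replicate 2 or 3 (edgeR adjusted p = 0.0555 and 0.0588). Ube2l6 and Herc6 were picked for naming after their values were seen. Usp18, whose product removes ISG15 and blocks the type I receptor, had 21 and 16 counts over the groups and was not tested.

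The ADP-ribosylation genes of the list, which lie near each other on chromosome 16, fell. Parp14, the gene of a mono-ADP-ribosyltransferase, stood at 9.91, 15.6 and 16.6 CPM in MA9+EV and 0.503, 2.74 and 2.81 CPM in MA9+SETDB1, lower throughout (log2 fold change -2.80 ± 0.58 SE, adjusted p = 0.00635 by edgeR). Dtx3l, a ubiquitin ligase gene, stood at 47.2, 39 and 36.8 CPM in MA9+EV and 2.8, 8.04 and 7.22 CPM in MA9+SETDB1 (log2 fold change -2.77 ± 0.38 SE, adjusted p = 0.00103 by edgeR). Parp9, whose protein forms a complex with DTX3L, stood at 18.7, 24.7 and 24.4 CPM in MA9+EV and 4.2, 8.04 and 7.22 CPM in MA9+SETDB1 (log2 fold change -1.80 ± 0.28 SE, adjusted p = 0.00169 by edgeR). Dtx3l (chr16:35926515-35939027) and Parp9 (chr16:35938470-35972621) overlap in the annotation, so their reads may not be fully separable. Their deposited counts were equal in MA9+SETDB1 replicates 2 (132 each) and 3 (139 each) and differed in the other libraries.

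Among signal transducers, Stat2 was the member, and its change was small. It stood at 37, 43 and 39.8 CPM in MA9+EV and 50.2, 53.6 and 51.5 CPM in MA9+SETDB1, without overlap (log2 fold change 0.37 ± 0.10 SE, adjusted p = 0.0208 by edgeR). The call was lost without MA9+EV replicate 3, MA9+SETDB1 replicate 2 or MA9+SETDB1 replicate 3 (edgeR adjusted p = 0.0792, 0.0844 and 0.0643), and also with no low-count filter (edgeR adjusted p = 0.0596). Its partner gene Irf9 rose from 13.8, 17.5 and 18.3 to 54.8, 48.9 and 48.4 CPM (log2 fold change 1.61 ± 0.15 SE, adjusted p = 0.000177 by edgeR).

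The interferon-induced GTPases of the list were lower or did not pass. Irgm1 stood at 26.4, 22.4 and 25.4 CPM in MA9+EV and 16.1, 12.2 and 13.2 CPM in MA9+SETDB1, lower throughout (log2 fold change -0.84 ± 0.16 SE, adjusted p = 0.00457 by edgeR). Igtp, which encodes a related GTPase, stood at 8.67, 13 and 12.1 CPM in MA9+EV and 6.54, 9.44 and 11 CPM in MA9+SETDB1 (log2 fold change -0.32 ± 0.27 SE, adjusted p = 0.34 by edgeR). Gbp2, a guanylate-binding protein gene, stood at 0.33, 1.45 and 1.06 CPM in MA9+EV and 0.224, 2.25 and 1.56 CPM in MA9+SETDB1 (log2 fold change 0.50 ± 0.81 SE, adjusted p = 0.629 by edgeR), with replicate 1 lowest in both groups and the sign of the difference turned without MA9+SETDB1 replicate 2 (log2 fold change -0.071). Mx1 had 1 count over MA9+EV against 3 over MA9+SETDB1, and Mx2 had 0 in every library. RefSeq lists both MX genes as transcribed pseudogenes in this reference strain, C57BL/6J.

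Membrane proteins that restrict viruses were also uneven. Ifitm3, the best known of the IFITM proteins that block fusion of virus and cell membranes (ENSMUSG00000025492.6, GRCm38 chr7:141009590-141010744), stood at 54.8, 39.6 and 39.4 CPM in replicates 1, 2 and 3 of MA9+EV and 0.336, 0.122 and 0.156 CPM in those of MA9+SETDB1. Almost no Ifitm3 reads, 11 in all, were left in MA9+SETDB1 (log2 fold change -7.72 ± 0.34 SE, adjusted p = 9.48e-06 by edgeR). Its neighbour Ifitm2 stood at 93, 122 and 118 CPM in MA9+EV and 25.3, 25.9 and 27 CPM in MA9+SETDB1, lower in every MA9+SETDB1 library (log2 fold change -2.09 ± 0.13 SE, adjusted p = 3.84e-05 by edgeR). Ifitm1, the third of the cluster on chromosome 7, stood at 153, 353 and 312 CPM in MA9+EV and 89.1, 222 and 226 CPM in MA9+SETDB1 and overlapped between groups (log2 fold change -0.60 ± 0.43 SE, adjusted p = 0.276 by edgeR). With the replicate block Ifitm1 passed as lower (log2 fold change -0.64, edgeR adjusted p = 0.00496). Replicate 1 was its lowest library in both groups. Bst2, which encodes the virion tether tetherin, stood at 28.2, 38.4 and 37.1 CPM in MA9+EV and 35.2, 61.9 and 60.0 CPM in MA9+SETDB1 (log2 fold change 0.60 ± 0.24 SE, adjusted p = 0.0735 by edgeR). Bst2 passed as higher without MA9+SETDB1 replicate 1 (edgeR adjusted p = 0.00378) and with the replicate block (edgeR adjusted p = 0.0116).

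**Figure D3:**
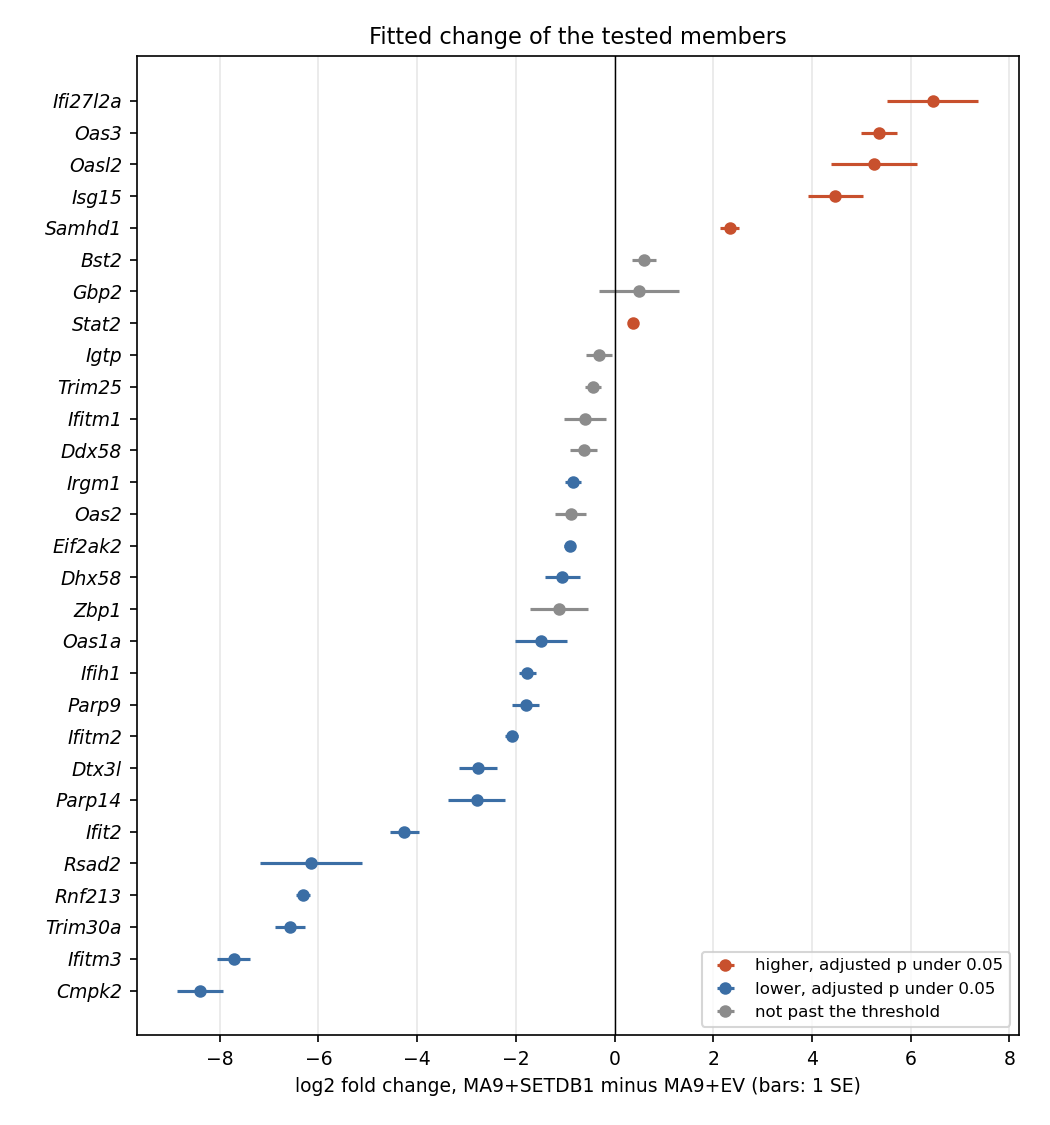
Fitted log2 fold change, MA9+SETDB1 minus MA9+EV (horizontal axis), with bars of 1 SE for the 29 tested genes in order of the fitted value. Red marks the 6 genes higher and blue the 15 lower at an edgeR adjusted p under 0.05, and grey the 8 that did not pass.

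Other effectors held the largest fitted fall of the list, in Cmpk2, and the largest fitted rise, in Ifi27l2a. Rnf213, the gene of a very large ubiquitin ligase that coats intracellular bacteria (ENSMUSG00000070327.14, GRCm38 chr11:119389950-119487418), stood at 129.5, 126 and 110.0 CPM in replicates 1, 2 and 3 of MA9+EV and 1.51, 1.46 and 1.61 CPM in those of MA9+SETDB1. The libraries of each group lay close together, far from the other group (log2 fold change -6.31 ± 0.14 SE, adjusted p = 1.02e-06 by edgeR). Trim30a (ENSMUSG00000030921.17, GRCm38 chr7:104409025-104465193), a TRIM family gene, stood at 23.2, 30.8 and 32.9 CPM in MA9+EV and 0.224, 0.243 and 0.415 CPM in MA9+SETDB1 (log2 fold change -6.58 ± 0.31 SE, adjusted p = 1.15e-05 by edgeR). Cmpk2, a mitochondrial nucleotide kinase gene (ENSMUSG00000020638.8, GRCm38 chr12:26469117-26479837), stood at 17.8, 12.6 and 13.6 CPM in MA9+EV and 0.0559, 0 and 0.0519 CPM in MA9+SETDB1. With 1005 counts against 2, its MA9+SETDB1 to MA9+EV ratio was 0.00253 (95% counting interval 0.000306 to 0.00917; log2 fold change -8.40 ± 0.47 SE, adjusted p = 2.42e-05 by edgeR). Rsad2, the gene of viperin, which makes a chain-terminating nucleotide, lies beside Cmpk2 (ENSMUSG00000020641.16, GRCm38 chr12:26442743-26456452). It was scarce in MA9+EV too, at 0.578, 2.7 and 2.02 CPM in MA9+EV and 0, 0 and 0.0519 CPM in MA9+SETDB1, with 119 counts against 1 and a ratio of 0.0107 (95% counting interval 0.000269 to 0.0608; log2 fold change -6.16 ± 1.04 SE, adjusted p = 0.0025 by edgeR). The only Rsad2 count of that group lay in MA9+SETDB1 replicate 3, and the fitted value without that library was -8.18 (edgeR adjusted p = 0.015).

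Against these falls, Samhd1, whose enzyme breaks down deoxynucleotides and so limits retroviral reverse transcription (ENSMUSG00000027639.16, GRCm38 chr2:157097534-157135096), stood at 65, 73 and 81.8 CPM in replicates 1, 2 and 3 of MA9+EV and 278, 426 and 403 CPM in those of MA9+SETDB1. Every MA9+SETDB1 library was higher (log2 fold change 2.33 ± 0.19 SE, adjusted p = 0.000121 by edgeR). Ifi27l2a, of the ISG12 family (ENSMUSG00000079017.3, GRCm38 chr12:103433873-103443680), stood at 0.0413, 0.373 and 0.403 CPM in MA9+EV and 5.93, 29.5 and 35.8 CPM in MA9+SETDB1 (log2 fold change 6.44 ± 0.93 SE, adjusted p = 0.00128 by edgeR). It was close to absent in MA9+EV, and within MA9+SETDB1 replicate 1 was several-fold below replicates 2 and 3. The annotated span of Ifi27l2a overlaps Ifi27, which stood at 5.99, 28.8 and 23.5 CPM in MA9+EV and 19.4, 61.3 and 65.6 CPM in MA9+SETDB1 (log2 fold change 1.33 ± 0.65 SE, adjusted p = 0.126 by edgeR) and passed as higher without MA9+SETDB1 replicate 1 (edgeR adjusted p = 0.0417) and with the replicate block (edgeR adjusted p = 0.00152). Xaf1, a gene linked to cell death, had 57 and 21 counts, Rtp4 7 and 0, and Ifi44 had 0 in every library. A count of 0 in a library allows up to 0.124 to 0.183 CPM (3 counts, counting error only).

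None of the 10 untested genes passed when the read minimum was dropped and all libraries were kept. The lowest edgeR adjusted p among them was 0.0506, for Ifit1. Mx2 and Ifi44, with no reads, could not be fitted. Xaf1 reached the minimum, and passed as lower, without MA9+EV replicate 1 (log2 fold change -1.59, adjusted p = 0.0164 by edgeR). The genes at or near 0 in both groups included Ifit3, Ifit3b, Oasl1, Mx1, Mx2 and Ifi44, most of which are known as strongly induced by type I interferon. Of these, Mx1 and Mx2 are listed as pseudogenes, and reads of Ifit3 and Ifit3b may have been left uncounted, which limits what their low counts say. Summed over all 39 genes, the level was 1004, 1288 and 1248 CPM in MA9+EV and 763, 1146 and 1130 CPM in MA9+SETDB1. The ranges of the groups overlapped. The sum joins opposite moves, such as Samhd1 from a mean of 73.3 to 369 CPM and Rnf213 from 122 to 1.53 CPM.

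The rest of the pathway was read from 106 further genes. Of the 73 that could be tested, 16 were higher and 32 lower in MA9+SETDB1 and 25 did not pass, with a median log2 fold change of -0.39. Over all tested genes 27.4% were higher and 26.2% lower, and the counts for parts of this list stand beside the same shares. No interferon was detected beyond single counts. Of 10 interferon genes, Ifna1, Ifna2, Ifna4, Ifna5, Ifnk, Ifng, Ifnl2 and Ifnl3 had 0 counts in every library, and Ifnb1 and Ifne had 1 count each, in MA9+SETDB1.

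The receptor genes were lower where they passed, 4 of 5 tested. Ifngr1, the ligand-binding chain for interferon gamma, went from 530.1, 726 and 726 to 119.9, 142 and 142 CPM (log2 fold change -2.30 ± 0.17 SE, adjusted p = 7.35e-05 by edgeR). Ifnar2 and Ifnar1, the type I receptor chains, went from 63.7, 75.8 and 81.4 to 39.4, 32.8 and 33.5 CPM (log2 fold change -1.06 ± 0.14 SE, adjusted p = 0.000758 by edgeR) and from 72.6, 79.6 and 77.9 to 60.6, 46.6 and 45.6 CPM (log2 fold change -0.59 ± 0.14 SE, adjusted p = 0.00959 by edgeR). Il10rb, a chain shared with the interferon lambda receptor, had a log2 fold change of -1.01 ± 0.11 SE (adjusted p = 0.000355 by edgeR). Ifngr2 stood at 41.3, 43.7 and 46.3 CPM in MA9+EV and 38.1, 14.7 and 15.2 CPM in MA9+SETDB1 (log2 fold change -0.95 ± 0.37 SE, adjusted p = 0.0687 by edgeR), with MA9+SETDB1 replicate 1 close to MA9+EV. It passed as lower without that library (edgeR adjusted p = 0.000112) and with the replicate block (edgeR adjusted p = 0.0436).

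Of 12 JAK, STAT and IRF genes, 4 were higher, 5 lower and 3 did not pass. Jak2, the kinase of the interferon gamma receptor and of many cytokine receptors, rose from 58.9, 47 and 44.3 to 419, 472 and 439 CPM (log2 fold change 3.15 ± 0.15 SE, adjusted p = 1.17e-05 by edgeR). The kinase genes of the type I receptor did not pass: Jak1 had a log2 fold change of 0.28 ± 0.13 SE (adjusted p = 0.1 by edgeR), passing with the replicate block (edgeR adjusted p = 0.0477), and Tyk2 one of -0.16 ± 0.10 SE (adjusted p = 0.216 by edgeR). Irf1, an activator of many of these genes, fell from 25.2, 26.1 and 24.6 to 7.78, 6.15 and 5.19 CPM (log2 fold change -1.99 ± 0.19 SE, adjusted p = 0.000226 by edgeR). Irf8, a monocyte and dendritic cell factor, had 825 counts against 1, a ratio of 0.00154 (95% counting interval 3.9e-05 to 0.00862; log2 fold change -8.93 ± 0.69 SE, adjusted p = 8.98e-05 by edgeR), with a fitted value of -11.00 without MA9+SETDB1 replicate 2, which held that count.

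Irf7, the factor that amplifies the type I response and is itself induced by it, stood at 0.991, 1.91 and 1.56 CPM in MA9+EV and 2.07, 1.4 and 1.92 CPM in MA9+SETDB1 and overlapped (log2 fold change 0.28 ± 0.35 SE, adjusted p = 0.534 by edgeR). Stat3 and Irf2 had log2 fold changes of -1.27 ± 0.17 SE (adjusted p = 0.001 by edgeR) and -0.51 ± 0.10 SE (adjusted p = 0.005 by edgeR). Irf3 and Irf5 had log2 fold changes of 0.48 ± 0.14 SE (adjusted p = 0.0235 by edgeR) and 1.34 ± 0.36 SE (adjusted p = 0.0183 by edgeR). The Irf3 call was lost without MA9+EV replicate 2 or 3 or MA9+SETDB1 replicate 2 or 3 (edgeR adjusted p 0.0694 to 0.0922). The Irf5 call was lost without MA9+EV replicate 1 or 2 or MA9+SETDB1 replicate 2 or 3 (edgeR adjusted p 0.0533 to 0.0703).

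**Figure D4:**
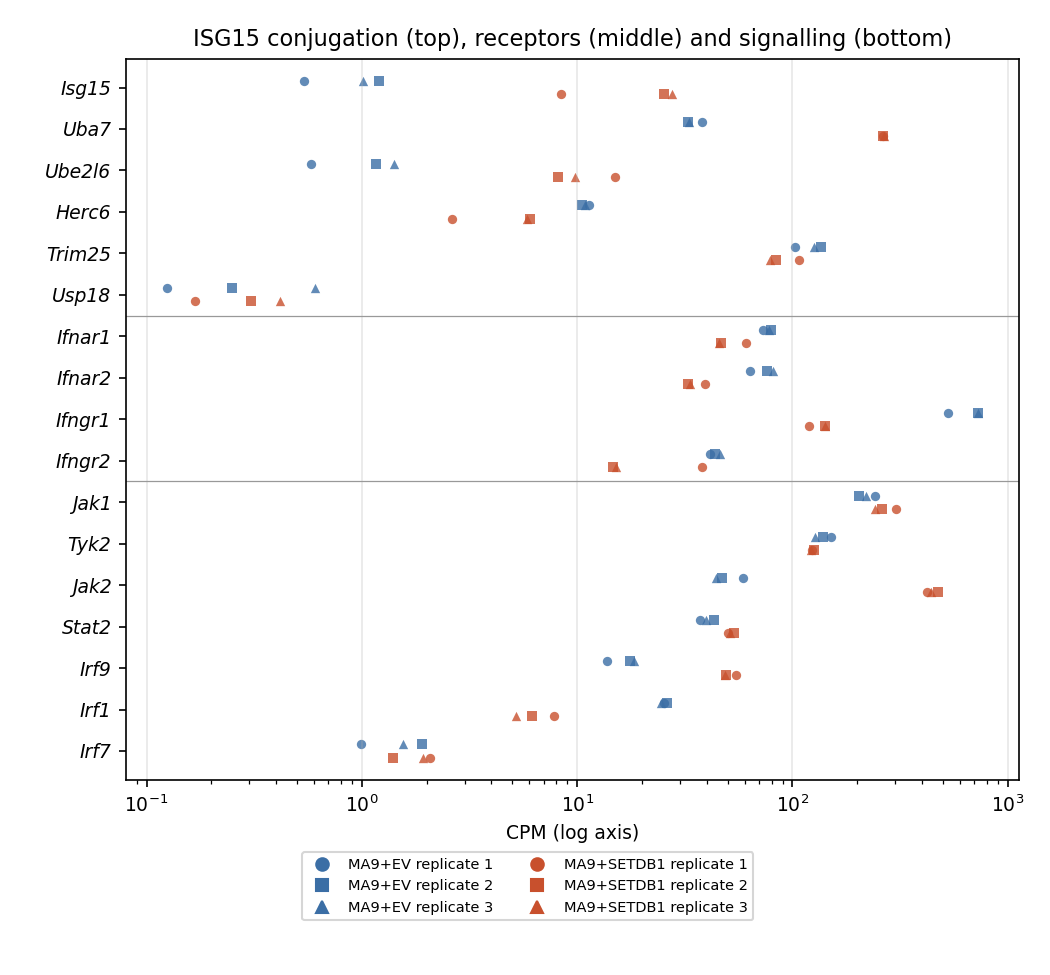
CPM (horizontal log axis) of genes of ISG15 conjugation (top), interferon receptors (middle) and signalling (bottom) in each library, with colour for the group and marker shape for the replicate number. Isg15, Uba7, Ube2l6, Jak2 and Irf9 lie to the right in MA9+SETDB1, and Ifngr1, Ifnar2 and Irf1 to the left.

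Of 12 tested genes that sense nucleic acids or relay that signal, 3 were higher and 5 lower. Tmem173, the gene of the adaptor STING, had a log2 fold change of -0.76 ± 0.13 SE (adjusted p = 0.00264 by edgeR), and Ikbke, a kinase gene that acts on IRF factors, one of -2.12 ± 0.37 SE (adjusted p = 0.00305 by edgeR). Tlr7, the gene of an endosomal receptor for single-stranded RNA, had 259 counts against 2, a ratio of 0.00983 (95% counting interval 0.00118 to 0.0359; edgeR adjusted p = 0.000136). Of 6 negative regulators, 2 were higher and 3 lower. Socs1, an inhibitor of JAK kinases, stood at 3.43, 5.64 and 6.65 CPM in MA9+EV and 59.7, 99 and 98 CPM in MA9+SETDB1 (log2 fold change 4.03 ± 0.32 SE, adjusted p = 0.000105 by edgeR) and Socs3 at 2.15, 7.05 and 8.06 CPM in MA9+EV and 41.1, 115 and 116 CPM in MA9+SETDB1 (log2 fold change 3.98 ± 0.61 SE, adjusted p = 0.00165 by edgeR). The phosphatase genes Ptpn11 and Ptpn6 had log2 fold changes of -0.92 ± 0.09 SE (adjusted p = 0.00027 by edgeR) and -1.04 ± 0.16 SE (adjusted p = 0.00194 by edgeR).

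Among 38 tested further interferon-induced genes, 7 were higher, 15 lower and 16 did not pass. Both directions also appeared over all tested genes, with 27.4% higher and 26.2% lower. Besides Uba7, the smallest p-values belonged to Slfn9, a Schlafen family gene, at 14.2, 22.6 and 22.9 CPM in MA9+EV and 0.168, 0.243 and 0.364 CPM in MA9+SETDB1 (log2 fold change -6.22 ± 0.37 SE, adjusted p = 3.08e-05 by edgeR), to Ifi35, higher with a log2 fold change of 1.48 ± 0.11 SE (adjusted p = 7.93e-05 by edgeR), and to Sp100, the gene of a nuclear body protein, lower with one of -1.76 ± 0.14 SE (adjusted p = 9.58e-05 by edgeR). Every p-value rests on the scatter among these libraries, which may be partly technical, and replicates 2 and 3 of each group lay close together. With replicates 2 and 3 of each group summed, 5 members were higher and 13 lower, and without replicate 1 of both groups 7 were higher and 21 lower.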

How the data were processed

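The authors deposited 1 file of whole-number counts per gene for each RNA-seq library, not normalized. Strand-specific poly-A libraries were made, per the labels' protocols. The submitters' processing notes name build GRCm38, STAR 2.6.0c and HTSeq 0.11.0 among other tools, without role or order; no source used here gives the strand setting of counting, which leaves overlapping genes uncertain. HTSeq summary lines, 24.6% to 26.3% of entries, were left out. The 20 chromatin samples were not analysed here. Symbols came from an identifier table (52480 matched with version, 1599 without, 67 unmatched) and coordinates and promoters from RefSeq (GRCm38.p6).

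Genes were filtered with filterByExpr, scaled by TMM and tested with edgeR's quasi-likelihood test (edgeR 4.0.16, R 4.3.3). The contrast was MA9+SETDB1 minus MA9+EV, with Benjamini-Hochberg adjustment over 12986 genes. A check on simulated data drew independent replicates with the same coefficient of variation for every gene. It did not cover libraries spaced as unevenly as these. Standard errors derive from the F statistic, and the common biological coefficient of variation was 0.244. Alternatives were other scalings, DESeq2 1.42.0, no filter, the replicate number as a block, and libraries left out or summed.

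Titles give both groups replicate numbers 1 to 3. Deviations of same-numbered libraries from their group means correlated across genes at 0.271, 0.225 and 0.205. MA9+EV replicate 2 correlated as much with MA9+SETDB1 replicate 3 (0.24), and MA9+EV replicate 3 with MA9+SETDB1 replicate 2 (0.204). These correlations set replicate 1 apart and did not tell replicates 2 and 3 from each other. The main fit treated the libraries as unpaired, and the replicate number entered only as a block in an alternative fit. Members and lists were chosen with earlier results of these data known. All members are named; of the pathway list, the tested interferon, receptor, JAK, STAT and IRF genes and up to 4 others per role with the smallest p, except where stated. Protein identity between near-identical members was planned and not computed here. Some genes of the lists are not reported here by name.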

Additional observations from a re-analysis of the deposited data

How the results depend on the processing

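The 15 lower and 6 higher members became 13 to 17 and 5 to 7 when any 1 library was left out, and 14 to 17 and 5 to 7 under other scalings, DESeq2, no low-count filter or the replicate block (15 lower and 7 higher with the block). The block moved no count by over 1.5 times, and changed the calls given above for Oas1a, Ifitm1, Bst2, Ifngr2, Jak1 and Ifi27 and no other named gene. Over all genes, 3554 higher and 3397 lower became 2292 and 1928 with replicates 2 and 3 of each group summed, and 5314 and 5285 without replicate 1 of both groups. Without replicate 1 of both groups, 6 of the 29 tested members that had not passed did so, as did Xaf1, which then reached the read minimum. With the summed libraries Oas1a, Dhx58, Stat2 and Irgm1 no longer passed, and Ifit1 reached the minimum and passed (log2 fold change -2.34, adjusted p = 0.0473 by edgeR). Among the named pathway genes the summed libraries also ended the calls of Ifnar1, Irf2, Irf3, Irf5 and Herc6 (edgeR adjusted p = 0.131, 0.113, 0.231, 0.149 and 0.0985). Calls were gained by Oas2 and Trim25 with upper-quartile scaling (edgeR adjusted p = 0.038 and 0.0357), by Trim25, Bst2, Ifngr2 and Ifi27 with DESeq2 (DESeq2 adjusted p = 0.0453, 0.0465, 0.0288 and 0.0492), and by Ifngr2 with no low-count filter (edgeR adjusted p = 0.0435). Signs turned for Gbp2 without MA9+SETDB1 replicate 2 (-0.071, against up to 1.02 with another library left out) and for Irf7 without replicate 1 of both groups (-0.044), neither of which passed. Low counts limit the size of the change in Rsad2, Cmpk2, Irf8 and Tlr7. Their counting intervals pool the reads of a group and leave out the spread among libraries, so the size is less certain than they show. Ifitm3, with 11 counts over MA9+SETDB1, and Oasl2 and Ifi27l2a, with 18 each over MA9+EV, are limited in the same way.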

Other observations

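The guanylate-binding proteins, interferon-induced GTPases related to Gbp2, were lower in MA9+SETDB1 wherever they passed; they were picked for description after their values were seen. Gbp3 stood at 7.8, 28 and 29.3 CPM in MA9+EV and 0.112, 0.183 and 0.571 CPM in MA9+SETDB1 (log2 fold change -6.17 ± 0.77 SE, adjusted p = 0.000673 by edgeR), with a fitted value of -7.15 without MA9+SETDB1 replicate 3. Gbp7 stood at 17.3, 32.8 and 31.9 CPM in MA9+EV and 3.8, 8.58 and 7.32 CPM in MA9+SETDB1 (log2 fold change -2.06 ± 0.38 SE, adjusted p = 0.00365 by edgeR). Gbp5 counted 90 reads over MA9+EV against 0 (edgeR adjusted p = 0.00127). Its pooled reads were 23.6-fold lower when the empty group is set to 3 counts in all. Gbp4, Gbp8, Gbp9 and Gbp6 did not reach the read minimum, with 117, 59, 77 and 26 counts over MA9+EV against 0. On the same basis their pooled reads were 30.6-fold, 15.5-fold, 20.2-fold and 6.81-fold lower. These folds leave out the spread among libraries and are no lower limit for the group difference. In MA9+EV replicate 1 the counts of Gbp4, Gbp8, Gbp9 and Gbp6 were only 9, 6, 8 and 1. In MA9+EV, replicate 1 was below replicates 2 and 3 for all of these genes.

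Oas1g, a close paralog of Oas1a chosen in the same way, stood at 12.7, 13.2 and 13.4 CPM in MA9+EV and 0.0559, 0.913 and 0.364 CPM in MA9+SETDB1 (log2 fold change -4.89 ± 0.65 SE, adjusted p = 0.00089 by edgeR), with a fitted value of -5.89 without MA9+SETDB1 replicate 2. Oas1b and Oas1c, the other Oas1 genes of the pathway list, overlapped between groups and did not pass. Their log2 fold changes were -0.55 ± 0.51 SE (adjusted p = 0.396 by edgeR) and -0.30 ± 0.26 SE (adjusted p = 0.363 by edgeR). They too were named after their values were seen, and were not followed through the alternative fits. Reads shared by such paralogs can be split or lost in counting. Across the genome, 357 tested genes had an ISRE core in a RefSeq promoter; 29.1% of them were higher and 27.5% lower in MA9+SETDB1, beside 28.0% and 26.9% of the 9377 tested genes without a core, and the median log2 fold changes were -0.09 and -0.02.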
